A study of Mus musculus with 6 samples.

Results

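The 8 genes described here are chemokine genes grouped for attracting T, B and NK cells: Cxcl9, Cxcl10, Cxcl11 (listed by RefSeq as a transcribed pseudogene), Cxcl13, Cxcl16, Ccl5, Ccl19 and Cxcl12. They were chosen by this function with their genotype differences between the arrays already known, and the probe set of each gene was selected on the highest mean over the 6 arrays. All 8 were measured, among 19938 genes in all. RNA came from F4/80+ cells of implanted tumours, and F4/80 is carried on the surface of mouse macrophages. One group of 3 samples came from tumours in wild type hosts and the other group of 3 from tumours in St2-/- hosts, which lack ST2, the receptor for the cytokine IL-33, and each sample had its own Affymetrix Gene 1.0 ST array. The labels give no tumour line, mouse strain, age or time after implantation. Values are the deposited RMA values, taken as log2, and every difference is St2-/- minus wild type.

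Chemokines are small secreted proteins that bind receptors on leukocytes and guide their migration along a gradient. Cxcl9, Cxcl10 and Cxcl11 are induced by interferons and share the receptor CXCR3 of activated T cells and NK cells. Cxcl13 draws B cells and follicular T cells through CXCR5, Cxcl16 is a membrane-anchored ligand of CXCR6 that can be shed, and Ccl5 binds CCR1 and CCR3. Ccl19 guides T cells and dendritic cells through CCR7, and Cxcl12 is a stromal ligand of CXCR4. In tumours these proteins are known for setting where lymphocytes gather.

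The 250 bases before the start of a gene are shown for 3 members, because 2 of them share a receptor and a chromosomal cluster but differed in response, and the third had the largest rise. Capitals mark matches to motifs that were searched on both strands: the core of the interferon-stimulated response element (GAAA, any 2 bases, GAAA) and an NF-kB pattern (GGG, any 5 bases, CC). Each sequence runs 5′ to 3′ on the strand of its gene.
Cxcl9, chr5:92328080-92328329, minus strand: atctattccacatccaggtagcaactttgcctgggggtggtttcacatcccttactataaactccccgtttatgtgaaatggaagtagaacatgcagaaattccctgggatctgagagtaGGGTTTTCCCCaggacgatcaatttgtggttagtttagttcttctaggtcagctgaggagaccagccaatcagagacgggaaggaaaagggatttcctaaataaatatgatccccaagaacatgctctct
Cxcl10, chr5:92348890-92349139, minus strand: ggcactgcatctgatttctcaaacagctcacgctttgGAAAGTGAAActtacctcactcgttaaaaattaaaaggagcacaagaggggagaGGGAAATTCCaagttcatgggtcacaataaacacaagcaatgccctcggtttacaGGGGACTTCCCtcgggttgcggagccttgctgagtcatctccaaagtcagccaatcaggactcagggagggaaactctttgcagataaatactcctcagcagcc
Cxcl13, chr5:95956689-95956938, plus strand: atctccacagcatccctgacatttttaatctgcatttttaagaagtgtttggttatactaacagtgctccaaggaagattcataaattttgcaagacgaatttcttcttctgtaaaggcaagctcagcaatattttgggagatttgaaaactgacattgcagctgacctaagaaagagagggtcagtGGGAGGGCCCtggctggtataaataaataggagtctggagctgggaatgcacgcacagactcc
These are RefSeq sequences of build GRCm38.p6, whose table held windows for 5 of the 8 members (Cxcl9, Cxcl10, Cxcl13, Ccl19 and Cxcl12), each reaching 50 bases past the start. The interferon core matched GAAAGTGAAA in Cxcl10, 213 to 204 bases before the start, and the same 10 letters in Ccl19, 208 to 199 bases before the start. It had 0 matches in the windows of Cxcl9, Cxcl13 and Cxcl12, and 3.44% of all 32851 windows of 300 bases held a match. The NF-kB pattern occurred in all 5 windows and in 50.8% of all windows, and a GAS motif (TTCNNNGAA) occurred in 0 of the 5 and in 8.3% of all windows. Of the motifs searched, the Cxcl10 and Ccl19 windows thus each held both the interferon core and the NF-kB pattern. The Cxcl9, Cxcl13 and Cxcl12 windows held only the NF-kB pattern among these motifs. Other forms of interferon response element were not searched, so 0 matches does not mean that a window lacks one.

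Of the 8 chemokines, 5 were called higher in St2-/- by limma at an adjusted p under 0.05, against 10.7% of all genes called higher. None was called lower, against 10% of all genes at that adjusted threshold. None was lower at an unadjusted limma p under 0.05 either, a threshold that 6571 of all 19938 genes passed in either direction. The groups of arrays did not overlap for the same 5, against 36.4% of all genes. The median log2 difference of the 8 was 0.48, beside -0.02 over all genes. Because the genes were chosen with this contrast known, these counts and the differences below are descriptions, and no p-value is given for a member.

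The 3 CXCR3 ligands differed from one another in size of change. Cxcl11 (probe set 10531420) read 6.23, 5.83 and 6.05 in the wild type arrays and 8.62, 8.33 and 8.29 in the St2-/- arrays. Every St2-/- array lay at least 2.06 above every wild type array. The means were 6.04 ± 0.20 and 8.41 ± 0.18 (SD, n = 3), a difference of 2.38 ± 0.12 (SE), or 5.19-fold. This was the widest scatter of the 8, with ranges of 0.40 and 0.33 within groups. RefSeq lists the mouse gene in its reference assembly as a transcribed pseudogene, so the array reports a transcript and not a protein.

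Cxcl9 (probe set 10531407) read 11.68, 11.82 and 11.63 in wild type and 12.04, 12.05 and 12.16 in St2-/-. The groups were 0.22 apart at their nearest arrays. The means were 11.71 ± 0.10 and 12.08 ± 0.07 (SD, n = 3), which differ by 0.37 ± 0.07 (SE), with a 95% interval of 1.16-fold to 1.45-fold. Cxcl10 (probe set 10531415), which carries the interferon core in its promoter window, read 11.72, 11.62 and 11.65 in wild type and 11.69, 11.64 and 11.70 in St2-/-. The groups overlapped throughout. Its means were 11.66 ± 0.05 and 11.68 ± 0.03 (SD, n = 3), and the difference of 0.01 ± 0.06 (SE) had a 95% interval from -0.13 to 0.15. That interval lies below the one for Cxcl9, 0.21 to 0.54. In this bulk RNA, a change in the number of cells of a type and a change in RNA per cell cannot be told apart.

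**Figure D1:**
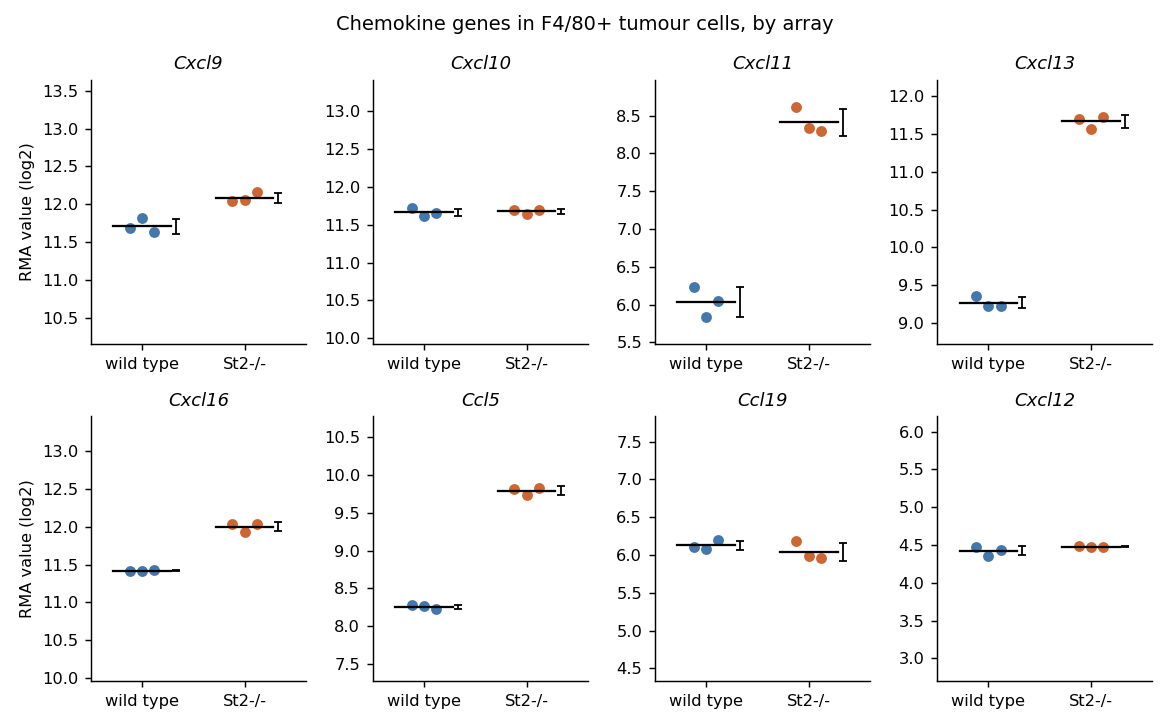
Deposited RMA value (log2, vertical axis) of each of the 8 chemokine genes on the 3 wild type (blue) and 3 St2-/- (orange) arrays; horizontal lines are group means, error bars are SD, and every panel spans the same number of log2 units, so heights of change can be compared while levels of different genes cannot. Cxcl13 and Cxcl11 show the widest separation, with gaps of 2.22 and 2.06 between groups, and Cxcl10, Ccl19 and Cxcl12 overlap.

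Cxcl13, the B cell attractant (probe set 10523359), had the largest difference of the 8, within the error of that of Cxcl11. It read 9.35, 9.23 and 9.23 in wild type and 11.70, 11.57 and 11.73 in St2-/-. The gap between the groups was 2.22, against ranges of 0.12 and 0.16 within them. The means were 9.27 ± 0.07 and 11.67 ± 0.09 (SD, n = 3), a difference of 2.40 ± 0.07 (SE), or 5.27-fold (95% interval 4.71 to 5.88). Among all genes it was the 11th greatest rise, and Cxcl11 the 12th.

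Ccl5, which attracts T cells, NK cells and monocytes (probe set 10389207), read 8.28, 8.26 and 8.23 in wild type and 9.82, 9.73 and 9.83 in St2-/-. Its arrays were tight within groups, with ranges of 0.05 and 0.10, and 1.45 apart between them. The difference was 1.54 ± 0.06 (SE), or 2.90-fold (95% interval 2.63 to 3.20), the 42nd greatest rise of all genes. Cxcl16, which also serves macrophages as a scavenger receptor for oxidised lipoprotein (probe set 10387890), read 11.42, 11.41 and 11.43 in wild type and 12.04, 11.93 and 12.03 in St2-/-. The wild type arrays differed by at most 0.02, and the groups were 0.50 apart. The difference was 0.58 ± 0.06 (SE), or 1.49-fold (95% interval 1.36 to 1.65).

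The chemokines of lymphoid stroma, Ccl19 and Cxcl12, were not called. Cxcl12 (probe set 10541075) read 4.48, 4.36 and 4.43 in wild type and 4.49, 4.47 and 4.48 in St2-/-, among the dimmest 40% of genes. Its difference was 0.06 ± 0.06 (SE), with a 95% interval from -0.08 to 0.20. Ccl19 had 5 probe sets, of which the brightest (10504132) read 6.10, 6.08 and 6.20 in wild type and 6.18, 5.98 and 5.96 in St2-/-. The groups overlapped, and the difference was -0.09 ± 0.08 (SE; 95% interval -0.26 to 0.09). The other 4 probe sets formed 2 pairs with identical values on every array, so the 5 gave 3 distinct profiles. RefSeq lists 4 further copies of Ccl19, of which 3 are pseudogenes, and these probe sets may not tell the copies apart.

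The receptors of these chemokines moved in both directions. Of 13 measured receptors, atypical receptors included, 2 were called higher, 4 lower and 7 not called in limma, 46.2% called against 20.8% of all genes, with a median difference of 0.01. Cxcr3, the receptor of Cxcl9, Cxcl10 and Cxcl11, read 5.27, 5.17 and 5.15 in wild type and 5.95, 6.0 and 5.81 in St2-/-. Its groups did not overlap, and it rose by 0.72 ± 0.07 (SE; limma adjusted p = 9.51e-05). Cxcr4, the receptor of Cxcl12, read 10.03, 10.09 and 10.02 in wild type and 11, 10.87 and 10.94 in St2-/-. It rose by 0.89 ± 0.06 (SE; limma adjusted p = 1.15e-05), while its ligand was not called.

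Ccr1, a receptor of Ccl5 on monocytes and macrophages, fell from 9.53, 9.69 and 9.63 to 8.96, 8.93 and 8.85. The difference was -0.70 ± 0.07 (SE; limma adjusted p = 7.86e-05), opposite in sign to that of Ccl5. Ackr3, an atypical receptor that takes up Cxcl11 and Cxcl12, read 5.74, 5.64 and 5.63 in wild type and 4.99, 4.63 and 5.09 in St2-/-, a difference of -0.77 ± 0.11 (SE; limma adjusted p = 0.000921). Ccr7, the receptor of Ccl19, differed by -0.26 ± 0.06 (SE; limma adjusted p = 0.0176). The Ccr7 call was lost without wild type replicate 3 or St2-/- replicate 2 or 3 (adjusted p from 0.0514 to 0.0638), after centring arrays on their medians (0.0843) and after cyclic loess (0.0682). Ackr4, an atypical receptor for Ccl19, had a difference of -0.33 ± 0.09 (SE; limma adjusted p = 0.0371) and lost its call without any of the arrays other than wild type replicate 2 (adjusted p from 0.0699 to 0.116). Under those settings the number of receptors called lower dropped as far as 2.

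Cxcr5 and Cxcr6, the receptors of Cxcl13 and Cxcl16, lay among the dimmest 40% of genes and were not called. Cxcr5 read 3.55, 3.56 and 3.67 in wild type and 3.83, 3.65 and 3.42 in St2-/-, with overlapping groups and a difference of 0.04 ± 0.10 (SE; 95% interval -0.18 to 0.26). Cxcr6 read 3.85, 3.54 and 3.64 against 3.93, 3.88 and 4.24, a difference of 0.34 ± 0.11 (SE; limma adjusted p = 0.0578). Its adjusted p passed after centring on array medians (0.0151), after cyclic loess (0.036), with a trend in the variance prior (0.0368) and without wild type replicate 1 (0.037).

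**Figure D2:**
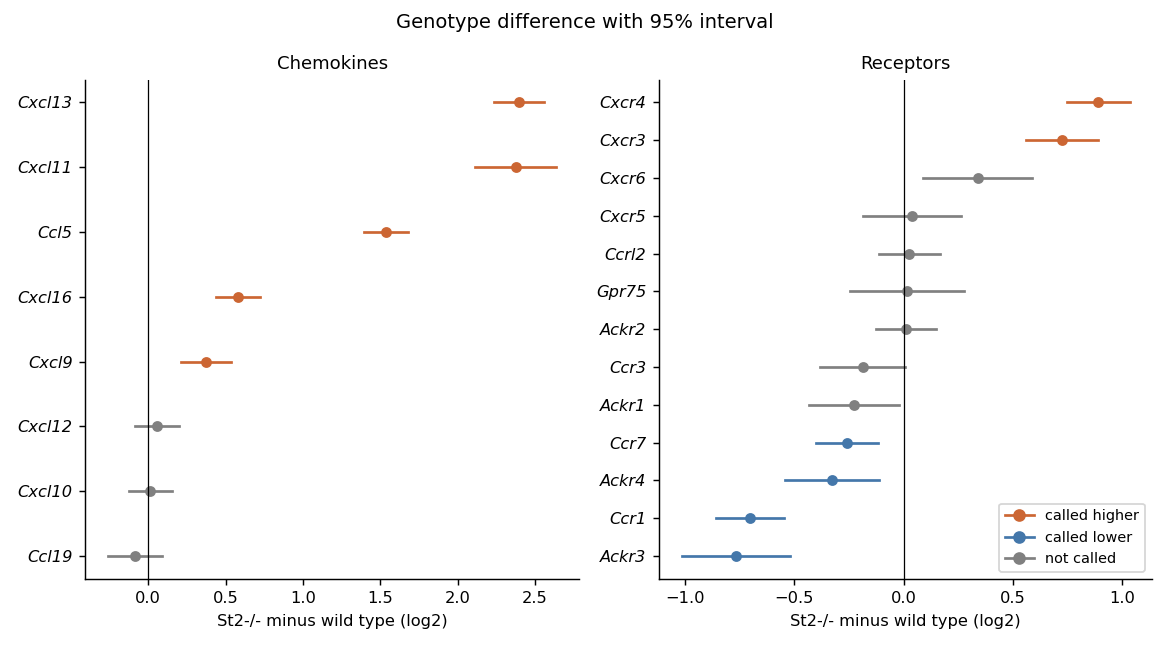
Log2 difference between St2-/- and wild type (horizontal axis, points) with its 95% interval (lines, from limma, 3 arrays a group) for the 8 chemokines (left) and 13 receptors (right); orange is called higher, blue called lower and grey not called. The 5 called chemokines all lie above 0, while receptors lie on both sides, from -0.77 for Ackr3 to 0.89 for Cxcr4.

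Enzymes and surface molecules that shed, cut or display chemokines also split. Of 12 listed, 11 were measured, 4 were called higher, 4 lower and 3 not called in limma, with a median difference of -0.08. This was 72.7% called against 20.8% of all genes. Adam10, the protease that sheds Cxcl16 from the membrane, read 10.52, 10.64 and 10.57 in wild type and 11.06, 10.94 and 11.06 in St2-/-. It rose by 0.44 ± 0.07 (SE; limma adjusted p = 0.00132). Mmp9, a gelatinase that can degrade CXCR3 ligands, fell from a mean of 7.03 ± 0.11 to 6.11 ± 0.06 (SD, n = 3; limma adjusted p = 2.12e-05). The heparan sulfate proteoglycan genes Sdc1 and Sdc4, whose sugar chains hold chemokines at the cell surface, differed by -0.74 ± 0.07 and -0.48 ± 0.07 (SE; limma adjusted p = 4.14e-05 and 0.000817). The other calls, singled out once their values were known, were the sheddase gene Adam17 (0.30), the macrophage elastase gene Mmp12 (0.37) and Dpp4, which trims the ends of CXCR3 ligands (0.32), all higher, and the heparan sulfate polymerase gene Ext1 (-0.35), lower.

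Genes of the interferon route to Cxcl9, Cxcl10 and Cxcl11 were called in 1 direction. Of 26 listed, 25 were measured, 13 were called higher and 12 not called in limma, with a median difference of 0.26. This was 52% called against 20.8% of all genes. None was called lower, and none was lower at an unadjusted limma p under 0.05 (6571 of all 19938 genes in either direction). Usp18, the ISG15 protease that restrains interferon receptor signalling, and Irf7, the factor that amplifies type I interferon production, rose by 1.20 ± 0.07 and 1.13 ± 0.07 (SE; limma adjusted p = 3.68e-06 and 3.38e-06). Il15, a growth factor of NK and memory T cells, rose by 0.85 ± 0.07 (SE; limma adjusted p = 3.35e-05). Irf8, a lineage factor of macrophages and dendritic cells, rose by 0.72 ± 0.07 (SE; limma adjusted p = 5.39e-05).

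The inducers and factors known to act closest to these chemokines are given for their role and were named after their values were seen. Ifng, whose product induces all 3 CXCR3 ligands, read 4.47, 4.28 and 4.59 in wild type and 5.10, 4.89 and 4.97 in St2-/-. It was among the dimmest 40% of genes and rose by 0.54 ± 0.09 (SE; limma adjusted p = 0.00253). Irf1, a factor induced by interferon gamma, rose from 8.98, 9.13 and 9.01 to 9.63, 9.62 and 9.70, a difference of 0.61 ± 0.07 (SE; limma adjusted p = 0.000164). Stat2, which pairs with Irf9 at interferon response elements, rose by 0.70 ± 0.08 (SE; limma adjusted p = 0.0002). The receptor genes Ifngr1 and Ifngr2 were not called, with differences of 0.03 ± 0.06 and 0.10 ± 0.06 (SE). Cxcl10, which interferons are also known to induce, was not called, as described above.

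The NF-kB and lymphotoxin route, known for Cxcl13, Ccl19 and Ccl5, was called in both directions. Of 19 listed genes, 16 were measured, 2 were called higher, 4 lower and 10 not called in limma, 37.5% called against 20.8% of all genes, with a median difference of -0.02. Those lower were Nfkbia, the feedback inhibitor of NF-kB (-0.51 ± 0.07, SE; limma adjusted p = 0.000691), the cytokine gene Tnf (-0.35 ± 0.06; 0.00341), the TNF receptor gene Tnfrsf1a (-0.35 ± 0.07; 0.00574) and Tnfaip3, the A20 inhibitor (-0.31 ± 0.06; 0.00599). Those higher, which were singled out once their values were known, were the ubiquitin ligase gene Birc3 (0.36 ± 0.08, SE; limma adjusted p = 0.00824) and the lymphotoxin alpha gene Lta (0.30 ± 0.09; 0.0444). The Lta call was lost without any of the arrays other than wild type replicate 3 (adjusted p from 0.068 to 0.145). Ltb and Ltbr, the lymphotoxin beta ligand and receptor that drive Cxcl13 and Ccl19 in lymphoid organs, were not called, at 0.01 ± 0.07 and -0.04 ± 0.06 (SE). The kinase gene Map3k14 of the same route was not called either (-0.16 ± 0.09, SE).

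**Figure D3:**
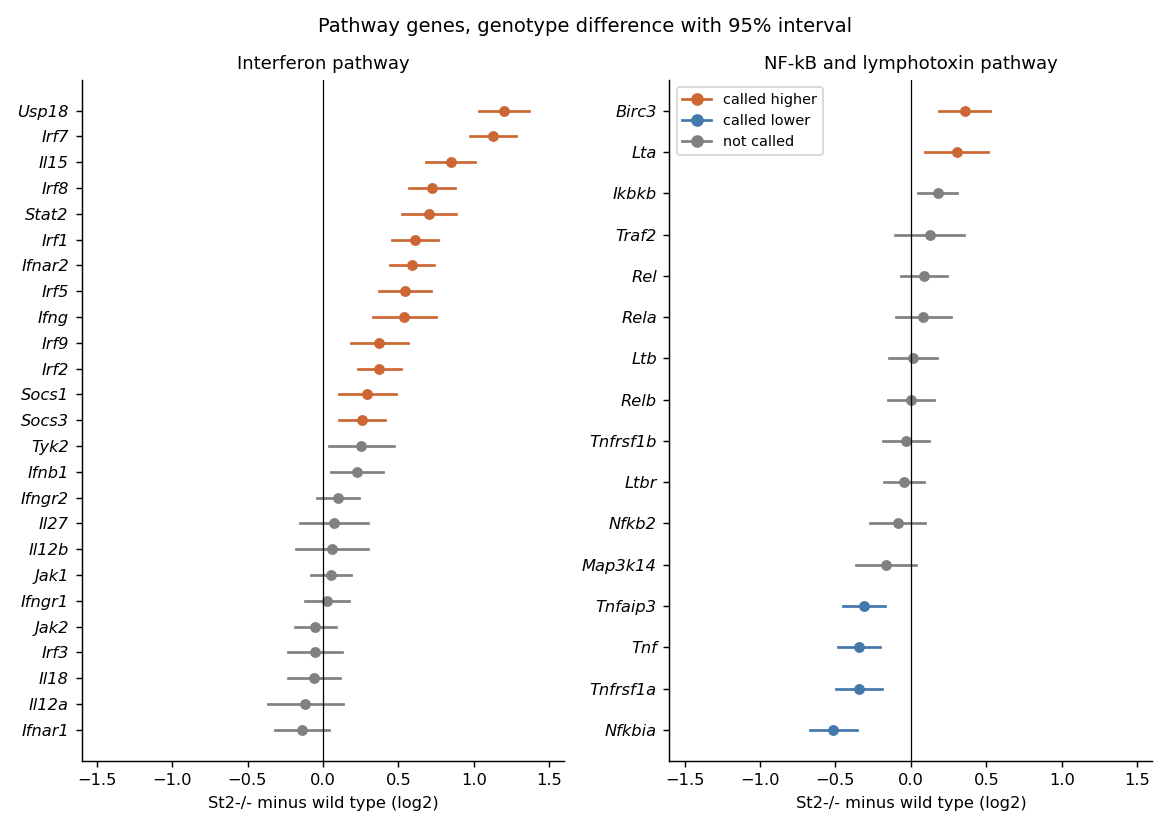
Log2 difference between St2-/- and wild type (horizontal axis) with its 95% interval (limma, 3 arrays a group) for 25 interferon pathway genes (left) and 16 NF-kB and lymphotoxin pathway genes (right); orange is called higher, blue called lower and grey not called. On the left 13 genes are called, all above 0, and on the right 2 are called above 0 and 4 below.

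Among the other chemokines, calls were in the other direction. Of the 26 other measured genes with a Ccl, Cxcl, Xcl or Cx3cl name, 7 were called lower and 19 not called. This was 26.9% called against 20.8% of all genes, with a median difference of -0.09. By limma 0 were called higher, and 2 were higher at an unadjusted p under 0.05. Of all 19938 genes, 6571 passed that unadjusted threshold in either direction. Cxcl5, a neutrophil attractant, had the lowest difference (-2.67 ± 0.08, SE; limma adjusted p = 2.86e-08), ahead of the macrophage chemokine gene Ccl9 (-1.28 ± 0.06; 6.59e-07), the neutrophil attractant Cxcl2 (-0.95 ± 0.07; 1.07e-05) and the monocyte attractant Ccl8 (-0.82 ± 0.07; 2.08e-05). The split between the 8 and the other 26 was not tested, since the 8 were chosen with the values known.

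A further list held genes outside the 8 that also attract lymphocytes or make such signals. All of its measured genes except Il16 and Sphk1 were also among the 26 other chemokines, so its counts largely repeat genes counted above. Of 16 listed, 14 were measured and 14.3% called against 20.8% of all genes: 2 were called lower (Ccl8 and the kinase gene Sphk1, which makes sphingosine 1-phosphate, -0.40 ± 0.07, SE; limma adjusted p = 0.0033) and 12 not called. None was called higher by limma, and 2 were higher at an unadjusted p under 0.05 (6571 of all 19938 genes in either direction). Ccl3, a ligand of CCR1, read 12.35, 12.46 and 12.39 in wild type and 12.55, 12.54 and 12.64 in St2-/-. Its groups did not overlap, and the difference was 0.18 ± 0.07 (SE; limma adjusted p = 0.0881). That adjusted p became 0.0191 after centring on array medians, 0.00262 with a trend in the variance prior and 0.0421 without dim genes. Cxcl14, an epithelial chemokine, differed by 0.15 ± 0.06 (SE; limma adjusted p = 0.129), and this became 0.019 after centring on array medians.

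**Figure D4:**
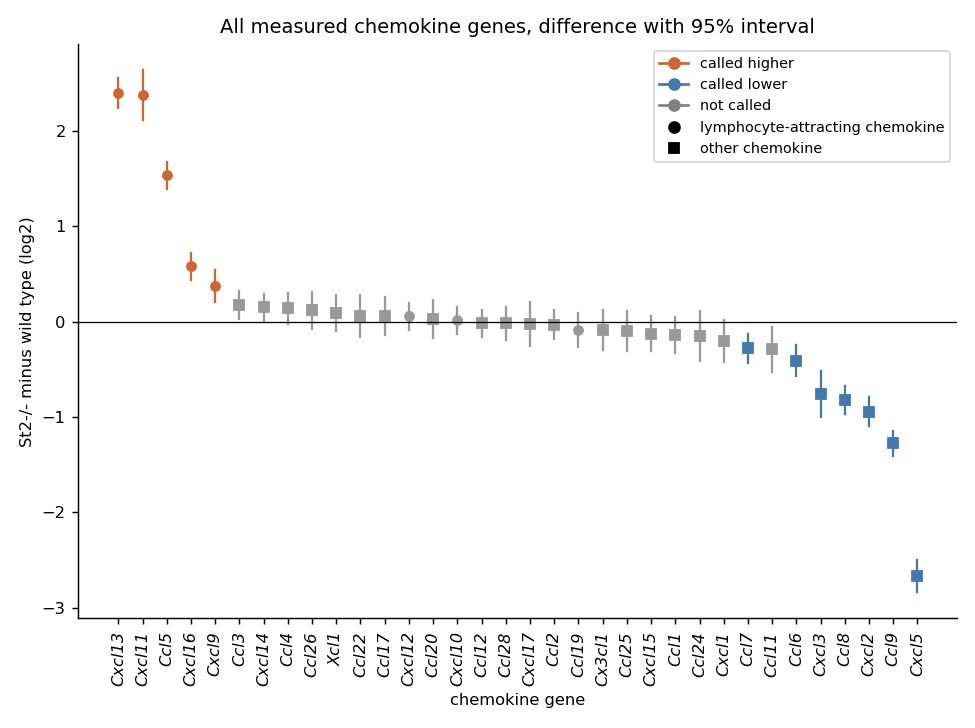
Log2 difference between St2-/- and wild type (vertical axis) with its 95% interval (limma, 3 arrays a group) for all 34 measured chemokine genes in order of difference; circles are the 8 lymphocyte-attracting chemokines, squares the other 26, orange is called higher, blue called lower and grey not called. The 5 genes at the left end are among the 8, and the 7 called lower, down to -2.67 for Cxcl5, are among the 26.

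Of the called chemokines, Cxcl11, Cxcl13 and Ccl5 had differences above those of every neighbour on the chromosome outside the 8, and Cxcl9 and Cxcl16 did not. Over the 37 measured genes that lie within 3 places of a member, 10 were called higher, 6 lower and 21 not called in limma. This was 43.2% called against 20.8% of all genes, with a median difference of 0.01. Cxcl9, Cxcl10 and Cxcl11 lie in this order on chromosome 5, with only Art3, an ADP-ribosyltransferase gene, between Cxcl9 and Cxcl10. Art3 was among the dimmest 40% of genes and was not called (0.01 ± 0.07, SE). Outside the cluster, the ribosome assembly gene Sdad1 rose by 0.59 ± 0.07 (SE; limma adjusted p = 0.000252) and the lysosomal amidase gene Naaa fell (-0.51 ± 0.06, SE; limma adjusted p = 0.000322). Nup54 and Ppef2, at 0.30 ± 0.09 and -0.24 ± 0.07 (SE; limma adjusted p = 0.0429 and 0.0432), lost their calls under 8 of 14 and 10 of 13 other settings. Within the cluster the differences ran from 0.01 for Cxcl10 to 2.38 for Cxcl11.

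Cxcl13 lies further along chromosome 5, where Cnot6l, Mrpl1 and Ccng2 rose by 0.39 ± 0.08, 0.42 ± 0.08 and 0.36 ± 0.09 (SE) and Gm7982 fell (-0.54 ± 0.12, SE; limma adjusted p for the 4 from 0.00403 to 0.0148). Each of these differences was smaller than that of Cxcl13. Ccng2 lost its call without St2-/- replicate 2 or 3 (adjusted p = 0.0553 and 0.0551), and Gm7982 without St2-/- replicate 3 (0.0506). Around Cxcl16 on chromosome 11, some neighbours were higher as well: Zmynd15 rose by 0.63 ± 0.06, Tm4sf5 by 0.91 ± 0.09 and Arrb2, which desensitises chemokine receptors, by 0.57 ± 0.07 (SE; limma adjusted p from 7.23e-05 to 0.000227). Next to Ccl5 on the same chromosome, Ccl9 and Ccl6 differed in the opposite direction, by -1.28 ± 0.06 and -0.41 ± 0.07 (SE), as did Mmp28 (-0.48 ± 0.10, SE; limma adjusted p from 6.59e-07 to 0.00682). Beside Cxcl12, Rassf4 rose by 0.40 ± 0.07 (SE; limma adjusted p = 0.0023), and beside Ccl19, Galt was called at 0.28 ± 0.08 (SE; limma adjusted p = 0.0417) but not without any of the arrays other than wild type replicate 1.

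**Figure D5:**
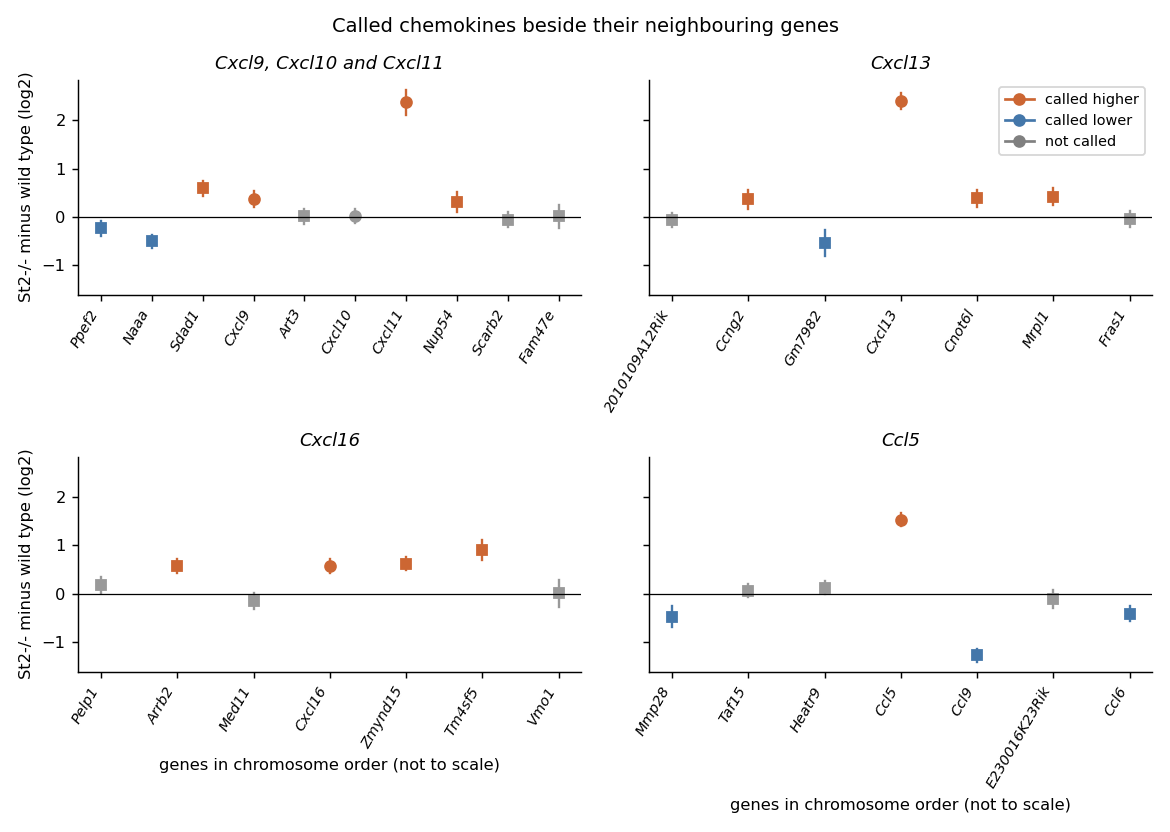
Log2 difference between St2-/- and wild type (vertical axis) with its 95% interval (limma, 3 arrays a group) for the 5 called chemokines and Cxcl10 (circles) and their nearest measured genes (squares), in chromosome order but not to scale; orange is called higher, blue called lower and grey not called. Cxcl11, Cxcl13 and Ccl5 stand above all of their neighbours, and Cxcl16 (0.58) lies between Arrb2 (0.57) and Zmynd15 (0.63).

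The genes whose profiles over the 6 arrays were nearest to that of Cxcl13, by root mean square distance of centred log2 values, were Cd4 (0.11), the ubiquitin ligase subunit gene Asb2 (0.12), Tespa1 (0.13), Klra3 (0.15) and Stap1 (0.16). Cd4, the co-receptor of helper T cells, read 6.05, 5.80 and 5.87 in wild type and 8.10, 7.98 and 8.21 in St2-/-. All 5 were groups apart with differences between 2.15 and 2.40. Klra3 belongs to a family of near-identical genes, so its value is uncertain. The 6 points share 2 groups, so the likeness is mainly one of the size of the genotype difference. For Ccl19, which had the lowest difference of the 8 but was not called, the nearest profiles were those of Adcy1 (0.018), Lypd6b (0.02), Bend7 (0.02), Scn2b (0.021) and Olfr902 (0.022), and the groups overlapped in each.

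Some markers of other cell types moved with genotype beside these results, and their part in them was not tested. The summed level of 12 dendritic cell markers was 10.92 to 10.99 in wild type and 12.07 to 12.14 in St2-/- (log2 of the sum). Each sum is of unlogged values, so the brightest markers weigh most in it. Xcr1 (3.37), Clec9a (1.88), Itgax (1.80) and Cd83 (0.72) were called higher and Fscn1 (-0.58) and Cd209a (-0.27) lower. The other 6, Flt3, Zbtb46, Batf3, Siglech, Itgae and Snx22, were not called, with differences from -0.24 to 0.08. The median difference of the 12 was -0.01. The summed level of 14 T cell markers was 9.11 to 9.23 and 9.72 to 9.81, with a median difference of 0.08. Of these, 6 were higher, led by Cd4 at 2.19, and Cd28 was lower at -0.71. For 12 NK cell markers the sum was 7.69 to 7.75 and 8.62 to 8.89, with a median difference of 0.24. Of these, 6 were higher, led by Klrk1 at 3.38 and Nkg7 at 1.45, and 0 lower, also at an unadjusted p. For 11 B cell markers the sum was 8.71 to 8.84 and 9.12 to 9.16, with a median difference of 0.02. Cd79b, Ms4a1, Bank1 and Jchain were higher by 0.30 to 0.80, and 0 were lower by limma but Cd79a at an unadjusted p. The Jchain call was lost under 6 of 13 other settings. Fibroblast and pericyte markers, from cells known to make Cxcl12, had sums of 12.16 to 12.21 and 10.53 to 10.65, with a median difference of -0.61. Of the 12, 8 were lower and Col1a2 higher at 0.35, while Cxcl12 itself was not called. The brightest of the 12 in wild type, Dcn, differed by -3.33. Endothelial markers had sums of 9.60 to 9.76 and 9.65 to 9.67 (7 of 10 lower, and Kdr and Pecam1 higher at 1.52 and 0.89). Epithelial and tumour cell markers had 9.75 to 9.88 and 9.65 to 9.72 (of 10, Krt8 lower at -0.35). The Krt8 call was lost under 7 of 14 other settings. The share called was 50% each for dendritic, T, NK cell and macrophage markers, and 36.4% for B cell markers. It was 75% for fibroblast and pericyte, 90% for endothelial and 10% for epithelial and tumour cell markers, against 20.8% of all genes. An unadjusted limma p under 0.05 was found for 6571 of all 19938 genes in either direction.

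The macrophage markers did not share the rise of the dendritic, T, NK and B cell sums. Their summed level was 15.66 to 15.69 in wild type and 15.53 to 15.59 in St2-/-, with Adgre1 and Fcgr1 of the 12 called higher (0.31 and 0.36) and Mrc1 (-1.64), Mertk (-0.72), Lyz2 (-0.71) and Cd14 (-0.35) lower. Adgre1, the gene of F4/80 itself, read 11.31, 11.36 and 11.28 in wild type and 11.65, 11.58 and 11.65 in St2-/-. It was called higher by 0.31 ± 0.06 (SE; limma adjusted p = 0.00631). The dimmest 40% of genes were set by the mean over all 6 arrays, so a gene bright in only 1 group can escape them. Klrk1 (means 4.08 in wild type and 7.46 in St2-/-) and Clec9a (4.37 and 6.25) lay outside them. Array values have no true zero, but 10 of the 12 NK cell markers, 8 of 11 B cell markers, 6 of 14 T cell markers, 5 of 12 dendritic cell markers and 0 of 12 macrophage markers were among the dimmest 40% of genes. Of these dim markers, Nkg7 (1.45 ± 0.12, SE), Cd3g (0.94 ± 0.12), Il2rb (0.76 ± 0.09) and Ms4a1 (0.48 ± 0.09) were among those called higher by limma. Others were not called, and 3 singled out for their role once values were known were the NK cell receptor gene Ncr1 (0.09 ± 0.06, SE), the T cell receptor chain gene Cd3d (0.02 ± 0.09) and the B cell factor gene Pax5 (0.01 ± 0.07).

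Median values were 5.88 to 5.93 on the wild type arrays and 5.81 to 5.82 on the St2-/- arrays, and centring on them moved the share of calls that were higher from 51.7% to 74%. Arrays of a group correlated at 0.996 to 0.998 across genes, and arrays of different groups at 0.986 to 0.988. Nothing in the labels says that the samples were separate animals, so a p-value here rests on a spread that may be technical. Precision is limited by having 3 arrays a group. The level of the targeted gene was not analysed here, so the genotypes were not checked against it.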

How the data were processed

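RNA was hybridised to Affymetrix Gene 1.0 ST arrays, 1 per sample (3 wild type, 3 St2-/-), per the labels. The authors deposited RMA values, per the submitters' processing notes, which are treated here as log2. This method normalizes arrays to a common distribution, so a shift shared by most genes is hidden. The sources used here do not give its version, and the log base was inferred from the range of the values.

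Of 35556 probe sets, the 21789 that the platform annotation pairs with 1 symbol were used, and the brightest on average stood for each of 19938 genes. Genotypes were compared in R 4.3.3 with limma 3.58.1 (functions lmFit and eBayes, two-sided, Benjamini-Hochberg adjustment over all genes, called at an adjusted p under 0.05, no filter on dim genes). Genes are named by a rule: all 8 members, up to 4 of each list with the smallest p, the listed receptor pairs, called chromosomal neighbours and the 5 profiles most like those of the members with the highest and the lowest difference. Neighbour order and promoters come from RefSeq tables (GRCm38.p6). The fit was tested on simulated data. The members and lists were chosen with earlier results of these data known.

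Same-numbered replicates did not deviate together (correlations of deviations 0.012, -0.012 and -0.048), so the numbers were not used as pairs.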

Additional observations from a re-analysis of the deposited data

How the results depend on the processing

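The call or lack of a call of each of the 8 chemokines was the same under all 14 other settings run (13 for Cxcl12, which has no value without dim genes), with log2 differences of 2.30 to 2.49 for Cxcl13, 2.27 to 2.47 for Cxcl11, 1.45 to 1.63 for Ccl5, 0.49 to 0.67 for Cxcl16 and 0.28 to 0.46 for Cxcl9. The sign of Cxcl10 turned after cyclic loess (-0.077) and without wild type replicate 2, in a range of -0.008 to 0.042 with 1 array left out, and that of Ccl19 after centring on array medians (0.003), none of them called.

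Centring each array on its median gave 3686 genes higher and 1294 lower (74% of calls higher), against 2142 and 1998 (51.7%). It left 2 receptors lower (4 before), 1 dendritic cell marker lower (2 before) and 0 epithelial markers lower (1 before). It gave 2 fibroblast markers higher (1 before). Ccl3, Ccl4 and Cxcl14 also became higher, and these same 3 genes count both as other lymphocyte attractants and as other chemokines (0 before in each). After cyclic loess 2 receptors and 1 dendritic cell marker were lower and 2 fibroblast markers higher. With a variance trend Ccl3, which is in both chemokine lists, was higher, and 1 dendritic cell marker lower. With all rows of the table tested 1 NF-kB pathway gene was higher (2 before), 1 dendritic cell marker and 0 epithelial markers lower. Leaving out the dimmest 40% removes dim markers from the test. Then 2 NK (6 before), 2 B cell (4 before) and 2 fibroblast markers were higher, and so was Ccl3, which is in both chemokine lists. Lower were 1 dendritic cell, 4 endothelial (7 before) and 2 epithelial markers. Klrk1, with a wild type mean of 4.08, was 1 of the 2 NK cell markers and stayed in the test through its St2-/- mean of 7.46. With the replicate number as a block, all genes gave 1807 higher and 1764 lower, the NF-kB pathway 1 higher and dendritic cell markers 1 lower, and the other counts moved by 1.5 times at most. Neither a robust prior nor the mean of all probe sets moved a count further than that. The causes were not tested.

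Leaving out 1 array gave 1466 to 1894 genes higher and 1421 to 1958 lower, 5 members higher each time, 2 to 4 receptors lower, 1 to 2 NF-kB pathway genes higher, 1 to 2 dendritic cell markers lower, 0 to 1 B cell markers lower and 0 to 1 epithelial markers lower. A replicate check rests on 3 arrays a group, and small differences such as those of Cxcr6 and Ccl3 are at the limit of what these arrays resolve.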
